A study of Mus musculus with 5 samples.

Results

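The synaptic vesicle and exocytosis machinery was examined as a list of 48 mouse genes, matched by Ensembl identifier to a deposited table of 20224 genes. All 48 were in the table, and 46 had enough reads to be tested for a difference between genotypes. The list groups genes by function. It holds 4 SNARE proteins, 3 proteins that take SNARE complexes apart, 8 synaptotagmins, 6 complexins and other regulators of release, 10 proteins on the vesicle, 3 Rab3 GTPases, 10 proteins of the active zone, 2 endocytic proteins, and 2 synucleins. RNA had been sequenced in bulk from sympathetic neurons of the stellate ganglia and thoracic sympathetic chain of E14.5 mouse embryos from non-diabetic pregnancies, with 100 cells per library. The cells were sorted for eGFP, driven by the peripherin (*Prph*) promoter of peripheral neurons, and for tdTomato from the *Ai14* reporter, which *Isl1-Cre* switches on. The 2 control libraries (replicates 5 and 6) came from embryos that were *Hif1a* loxP/+, and the 3 *Hif1aCKO* libraries (replicates 3, 4, and 5) from embryos that were *Hif1a* loxP/loxP. Both groups carried *Isl1Cre*, *tdTomatoAi14*, and *Prph-eGFP* on a mixed C57BL/6J, C57BL/6N, and FVB background, so the controls had 1 floxed allele and a Cre as well. The Cre is a knock-in at *Isl1* that came from the father and acts in every cell with a history of *Isl1* expression. The general text of the series also mentions controls with no *Isl1-Cre*. No label ties a library to an embryo or litter, and the p-values below measure the spread between these libraries.

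A nerve terminal stores its transmitter in synaptic vesicles, which dock at the active zone and fuse with the plasma membrane when calcium enters. The SNARE proteins drive the fusion, synaptotagmins sense the calcium, complexins and Munc13 proteins set the readiness of docked vesicles, and Rab3, RIM, and liprin proteins link vesicles to the release site. Sympathetic neurons use this machinery to release noradrenaline onto the heart and vessels, and they begin to make it while their axons are still growing.

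The counts summed to between 8254211 and 9700887 per library. *Hif1a* itself gave normalized counts (reads scaled to a common library size) of 2086 and 1584 in the controls and 2747, 1757, and 2135 in *Hif1aCKO* neurons. The floxed part is exon 2 alone and the count covers the whole gene, so this does not check the deletion. The defining genes of sympathetic neurons were abundant in every library, and the summed normalized count of the 18 markers was 109195 to 130884 in the controls and 94085 to 97930 in *Hif1aCKO* neurons. The summed count of 15 genes of cycling cells was 28202 to 33789 in the controls and 42261 to 53628 in *Hif1aCKO* neurons, and all 15 were higher. *Hif1aCKO* replicate 3 stood apart in genes of Schwann cell precursors and glia, with a sum of 1634 over the 5 genes measured against 51.6 to 122 in the other libraries, and *Fabp7* alone gave 993 normalized counts there. *Sox10*, which defines these cells, gave 8.58 in that library and less than 1 elsewhere. *Xist* was high in control replicate 5 and *Hif1aCKO* replicate 3 and *Ddx3y* in the other 3 libraries, so each group held libraries of both kinds.

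Most of the machinery was measured at a lower mean in *Hif1aCKO* neurons, and no member passed the test across all genes. Of the 46 members tested, 33 (71.7%) had a log2 fold change below 0, against 48.7% of all 15032 genes tested, and 13 had one above 0. All 8 synaptotagmins were among the 33, although *Syt7* was level, and the SNARE gene *Snap25* and the active zone gene *Rims2* were among the 13. The median log2 fold change of the members was -0.27, beside 0.01 for all genes tested. With edgeR's quasi-likelihood test, 0 members were called at an adjusted p under 0.05, a log2 fold change beyond 0.3 in size, and 50 or more normalized counts on average, and the share of all genes called was 0%. The smallest Benjamini-Hochberg adjusted p was 0.567 among the members and 0.446 among all genes. DESeq2 with the same thresholds called 3 members, *Ppfia2*, *Sncg*, and *Sv2c*, all lower, where it called 60 genes (0.388% of 15477). In bulk samples, fewer cells of a type and less RNA per cell cannot be told apart.

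At an unadjusted p under 0.05 in edgeR, 7 members were lower (15.2% of those tested, against 3.85% of all genes tested) and 2 were higher (4.35%, against 3.83%). All 3 *Hif1aCKO* libraries lay below both controls in 16 members (34.8%, against 12.9% of all genes tested) and above both in 2 (4.35%, against 12.9%). Several of the 16 were separate by a few counts or less. The number below was 11 under upper-quartile factors, and 12 of the 42 members tested with at least 10 counts in every library. The shares of all genes given above hold for the main fit only. The summed counts of the sympathetic neuron markers, lower in *Hif1aCKO* neurons, and of the cycling cell genes, higher there, also did not overlap between genotypes, and their part in these counts was not tested. Without *Hif1aCKO* replicate 3, the library with glial reads, 11 members were lower at an unadjusted p under 0.05 and the median was -0.28. Without control replicate 6, only 3 members were lower at that threshold and the median was -0.21.

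**Figure D1:**
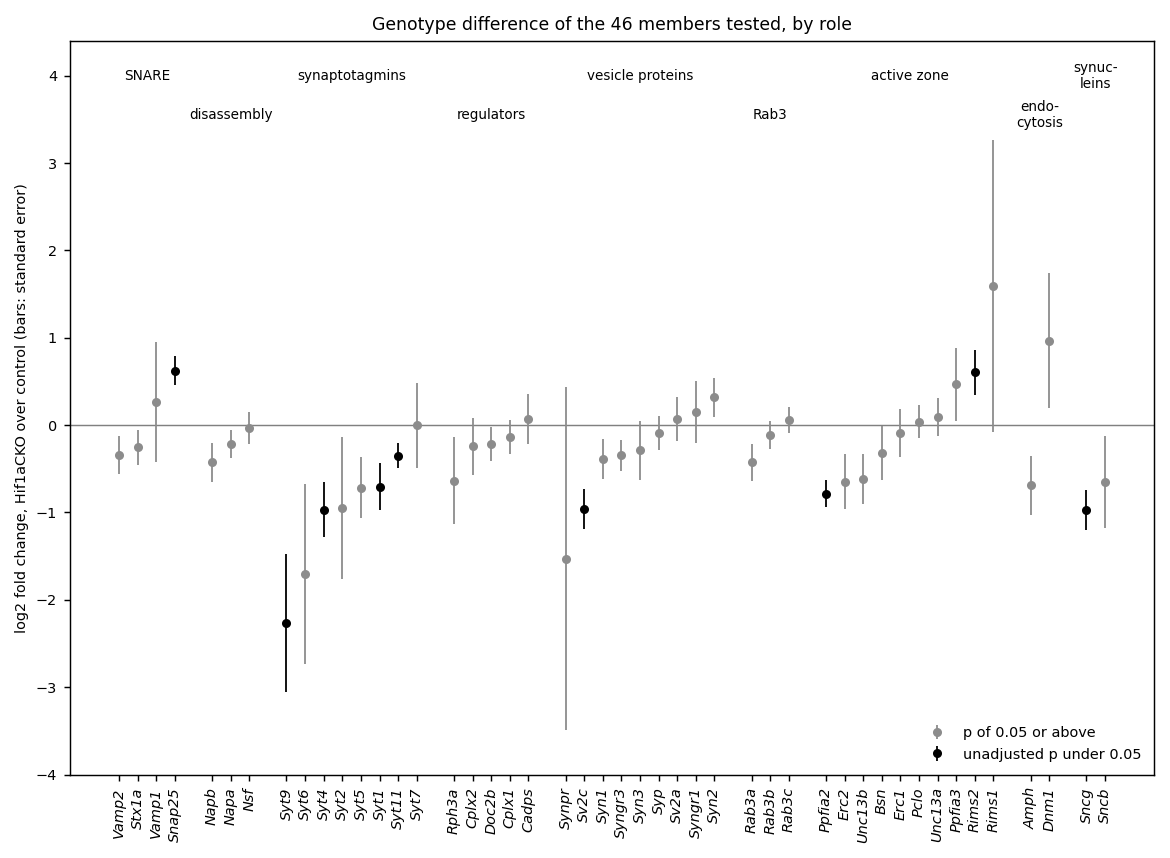
Log2 fold change of *Hif1aCKO* over control neurons for each of the 46 members tested, grouped by role, with bars of 1 standard error from edgeR. The 9 members in black had an unadjusted p under 0.05, and all 8 synaptotagmins lie at or below 0.

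Among the SNARE proteins, which form the bundle that pulls vesicle and plasma membrane together, the plasma membrane member *Snap25* was the clearest. It gave normalized counts of 8225 and 5368 in the controls and 10449.9, 10628, and 10359.9 in *Hif1aCKO* neurons. The *Hif1aCKO* libraries were nearly equal and all above the controls, which differed more from each other. The log2 fold change was 0.62 (SE 0.17, adjusted p = 0.598, edgeR), a 1.54-fold difference of the means. Its partners in the bundle had lower means in *Hif1aCKO* neurons, by less. *Stx1a*, its syntaxin at the plasma membrane, gave 476 and 479 in the controls and 415, 440.4, and 345 in *Hif1aCKO* neurons (log2 fold change -0.25, SE 0.20). *Vamp2*, the SNARE on the vesicle, gave 1417 and 1708 in the controls and 1376, 913, and 1416 in *Hif1aCKO* neurons (log2 fold change -0.34, SE 0.22). In both genes the groups did not overlap, but the highest *Hif1aCKO* value of *Vamp2* was within 1 count of the lower control. *Vamp1*, the other vesicle SNARE in the list, was rare, at 19.8 to 50.4 normalized counts. The 3 proteins that recycle used SNARE complexes, the ATPase *Nsf* and its adaptors *Napa* and *Napb*, had log2 fold changes from -0.43 to -0.03, and the groups overlapped in all 3. For *Nsf*, the counts were 756 and 894 in the controls and 859, 869, and 697 in *Hif1aCKO* neurons, with a 95% interval of the log2 fold change from -0.45 to 0.39.

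Synaptotagmins are a family of vesicle proteins that bind calcium or membranes during release. The 8 in the list had the lowest median log2 fold change of the roles with more than 2 genes, at -0.83. All 8 were below 0, although *Syt7* at -0.002 was level, 4 had an unadjusted p under 0.05, and 5 did not overlap between groups. Further synaptotagmins were among 8 other calcium sensors and release regulators tested, of which 5 were lower and 3 higher. *Syt13*, described below, was among the 3. *Syt1*, the fast calcium sensor of release, gave 1138 and 2264 normalized counts in the controls and 919, 1039.5, and 1173 in *Hif1aCKO* neurons. Only control replicate 6 lay apart from the rest, and the groups overlapped. The log2 fold change was -0.71 (SE 0.27, adjusted p = 0.621, edgeR), and it was -0.13 without control replicate 6, where the unadjusted p was no longer under 0.05. Leaving out *Hif1aCKO* replicate 3 or 4 also took it above 0.05.

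*Syt4*, an atypical synaptotagmin of dense-core and other secretory vesicles, gave 1701.96 and 3167 in the controls and 1701.62, 1110.4, and 924 in *Hif1aCKO* neurons. Control replicate 5 and *Hif1aCKO* replicate 3 were thus level, and the groups are separate by a fraction of a count. Its log2 fold change of -0.97 (SE 0.31, adjusted p = 0.618, edgeR) was -0.46 without control replicate 6, also with the unadjusted p no longer under 0.05. The antisense gene *Gm26658* shares 566 of the 3892 exonic bases of *Syt4* and was also lower (208 and 405 against 97.6, 122, and 129 normalized counts). The counting used the default settings of its package, which ignore strand and leave out reads that overlap exons of different genes. Where the annotation used held both genes, reads in the shared bases are thus missing from both counts.

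*Syt11*, a synaptotagmin that does not bind calcium and acts in endocytosis, was the most abundant of the family per length. Its normalized counts were 7519 and 8704 in the controls and 7169, 5380.3, and 6561 in *Hif1aCKO* neurons. The groups were separate with a narrow gap, and the log2 fold change was -0.35 (SE 0.14, adjusted p = 0.636, edgeR). Without control replicate 6 it was -0.24, and leaving out either control replicate 6 or *Hif1aCKO* replicate 4 or 5 took the unadjusted p above 0.05. *Syt9*, another calcium sensor, was rare, at 57.3 and 136 in the controls and 35.4, 19.97, and 4.87 in *Hif1aCKO* neurons. Every *Hif1aCKO* library was below the controls, but the libraries of each group differed by more than their distance, and the log2 fold change of -2.27 had an SE of 0.79 (adjusted p = 0.621, edgeR). Without control replicate 6 it was -1.52, with an unadjusted p above 0.05. *Syt5*, also a calcium-binding synaptotagmin, was close to equal in the controls, at 326 and 325, and lower and more spread in *Hif1aCKO* neurons, at 279.9, 191, and 124 (log2 fold change -0.72, SE 0.35, adjusted p = 0.689, edgeR). *Syt2* and *Syt6* gave at most 37.5 normalized counts in a library.

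**Figure D2:**
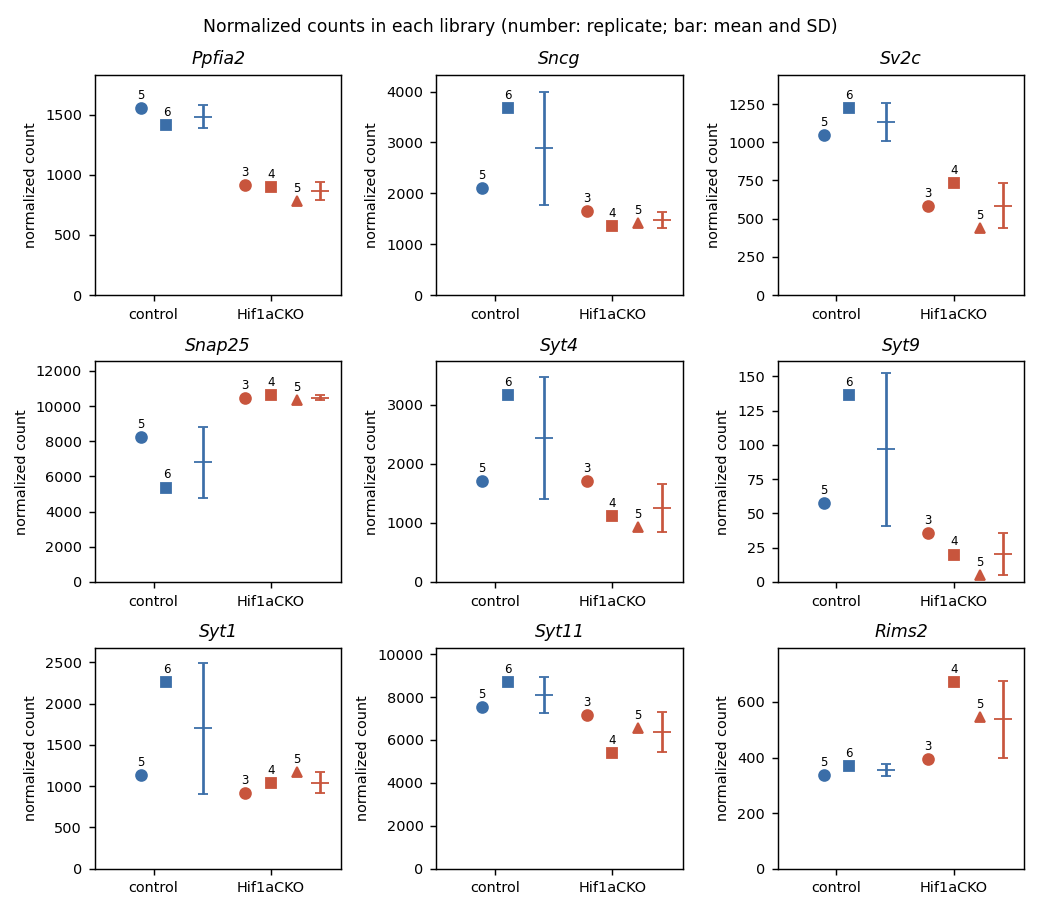
Normalized counts in each of the 5 libraries for the 9 members with an unadjusted p under 0.05, in order of p, with the replicate number at each point and bars for the mean and SD of each group. *Ppfia2* and *Sv2c* show separate groups with control values close together, whereas in *Sncg*, *Syt4*, *Syt9*, and *Syt1* control replicate 6 is far above control replicate 5.

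Complexins, which clamp and then promote SNARE fusion, overlapped between genotypes. *Cplx1* gave 1632 and 1362 normalized counts in the controls and 1509.7, 1068, and 1514 in *Hif1aCKO* neurons (95% interval of the log2 fold change -0.59 to 0.32). *Cplx2* gave 384 and 258 in the controls and 216, 376, and 223 in *Hif1aCKO* neurons (95% interval -0.99 to 0.51). These intervals are wide enough to hold a difference of the size seen in *Syt11* in either gene. Of the other regulators, *Doc2b*, a calcium-binding protein of the release site, gave 435 and 480.5 in the controls and 392, 431, and 358 in *Hif1aCKO* neurons, separate by 4 counts (log2 fold change -0.22, SE 0.20). *Rph3a*, an effector of Rab3, had a log2 fold change of -0.63 (SE 0.50), and *Cadps*, which primes dense-core vesicles, one of 0.07 (SE 0.28). Its paralog *Cadps2* had at most 2 reads in a library and was not tested.

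On the vesicle itself, *Sv2c* stood out. SV2 proteins are transporter-like membrane proteins of synaptic and secretory vesicles that modulate the calcium response of release. *Sv2c* (chromosome 13, 95954594 to 96132577 on GRCm38) gave 1046 and 1223 normalized counts in the controls and 583, 731, and 436 in *Hif1aCKO* neurons. The groups were well apart, and the highest *Hif1aCKO* library was nearer to its own group than to the controls. Its log2 fold change was -0.96 (SE 0.23, adjusted p = 0.586, edgeR), a control mean 1.94-fold that of *Hif1aCKO* neurons. Its paralog *Sv2a*, the widespread form, gave 307 and 309 in the controls and 249, 351, and 367 in *Hif1aCKO* neurons, on both sides of the controls. *Sv2b* had 23 reads in *Hif1aCKO* replicate 3 and at most 3 elsewhere and was not tested.

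The synapsins tether vesicles in the reserve pool. *Syn1* gave 756 and 729 in the controls and 728, 446, and 523 in *Hif1aCKO* neurons, where replicate 3 was level with the lower control (log2 fold change -0.39, SE 0.23). *Syn2* pointed upward with a log2 fold change of 0.32 (SE 0.22) and *Syn3* downward with -0.29 (SE 0.34), and both overlapped. *Syp*, the abundant vesicle protein synaptophysin, gave 809 and 666 in the controls and 808, 637, and 636 in *Hif1aCKO* neurons, with overlap (95% interval -0.53 to 0.35). Synaptogyrins are its relatives. *Syngr3* gave 1161 and 1531 in the controls and 1031, 1001, and 1147 in *Hif1aCKO* neurons, with no overlap but a gap smaller than the difference between the controls (log2 fold change -0.35, SE 0.17). *Syngr1* overlapped, at a log2 fold change of 0.15. *Synpr*, a synaptophysin relative, gave 160.4 and 0 in the controls and 0, 81.9, and 0.973 in *Hif1aCKO* neurons, so that it was detected in single libraries of either genotype.

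Rab3 GTPases bring vesicles to the release site. *Rab3a*, the main form in the brain, gave 1182 and 1511 normalized counts in the controls and 1229.8, 967, and 812 in *Hif1aCKO* neurons. *Hif1aCKO* replicate 3 lay between the controls, and the log2 fold change was -0.43 (SE 0.21, adjusted p = 0.695, edgeR). *Rab3b* and *Rab3c* had log2 fold changes of -0.12 (SE 0.16) and 0.06 (SE 0.15).

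The active zone, the protein scaffold of the release site, held the member with the smallest p, *Ppfia2*, and also *Rims2*, which was higher. *Ppfia2* (chromosome 10, 106470339 to 106935952 on GRCm38), which encodes liprin-α2, an organizer of the active zone, gave 1553 and 1414 normalized counts in the controls and 912, 896, and 777 in *Hif1aCKO* neurons. Both groups were tight, with the gap between them several times the spread within either. The log2 fold change was -0.78 (SE 0.16, adjusted p = 0.567, edgeR), a control mean 1.72-fold that of *Hif1aCKO* neurons. The antisense gene *Acss3* covers 22.3% of the exonic bases of *Ppfia2*, where reads would be counted for neither gene, as described for *Syt4*. *Acss3* gave 11.1 to 65.6 normalized counts in the controls and 9.65 to 29.2 in *Hif1aCKO* neurons.

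*Rims2*, a RIM protein that binds Rab3 and calcium channels, gave 339 and 369 in the controls and 395, 672, and 545 in *Hif1aCKO* neurons. All 3 were above the controls, replicate 3 by little. Its log2 fold change of 0.60 (SE 0.26, adjusted p = 0.647, edgeR) lost an unadjusted p under 0.05 when either control or *Hif1aCKO* replicate 4 or 5 was left out. *Rims1*, the other RIM gene in the list, had 0 to 16.1 normalized counts. The Munc13 genes, which prime vesicles, differed from each other. *Unc13b* gave 362 and 339 in the controls and 214, 173, and 298 in *Hif1aCKO* neurons, all below (log2 fold change -0.62, SE 0.28, adjusted p = 0.673, edgeR). *Unc13a* gave 305 and 345 in the controls and 306, 365, and 369.8 in *Hif1aCKO* neurons, with overlap (95% interval -0.41 to 0.60). The large scaffold *Bsn* gave 143 and 166 in the controls and 132, 104, and 134 in *Hif1aCKO* neurons, separate by less than 10 counts, and its partner *Pclo* overlapped at a log2 fold change of 0.04 (SE 0.19). *Erc1*, *Erc2*, and *Ppfia3*, further scaffold genes, also overlapped, with log2 fold changes of -0.09, -0.65, and 0.47.

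The endocytic members retrieve vesicle membrane after release. *Dnm1*, the neuronal dynamin, was rare at this stage, with 11.5 and 26.0 normalized counts in the controls and 40.7, 19.0, and 50.6 in *Hif1aCKO* neurons. *Amph*, a dynamin partner, was lower on average (log2 fold change -0.69, SE 0.34), and both genes overlapped between groups. Synucleins are small proteins that bind vesicle membranes. *Sncg* (chromosome 14, 34370274 to 34374789 on GRCm38), γ-synuclein of peripheral neurons, gave 2104 and 3674 in the controls and 1651, 1362, and 1418 in *Hif1aCKO* neurons. All *Hif1aCKO* libraries were below the controls and close together, whereas the controls differed widely. The log2 fold change was -0.97 (SE 0.23, adjusted p = 0.586, edgeR), and it was -0.52 without control replicate 6. *Sncb*, β-synuclein, gave 71.9 and 66.8 in the controls and 65.4, 36.9, and 30.2 in *Hif1aCKO* neurons, where replicate 3 was within 2 counts of the lower control.

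Bases just upstream of the start are shown for *Ppfia2*, *Sv2c*, and *Sncg*, the members with the 3 smallest p-values, and for *Syt1* as a member in which the searched motif was not found. They are from RefSeq on GRCm38.p6, 5′ to 3′ on the strand of the gene, and end before the first transcribed base in both RefSeq and GENCODE. They are chr10:106470060-106470309 (plus strand), chr13:96132578-96132827 (minus), chr14:34374790-34374919 (minus), and chr10:109010983-109011225 (minus). Capitals mark the core of the hypoxia response element, the DNA letters that HIF-1 is known to bind, searched as ACGTG or GCGTG on both strands, where CACGT and CACGC are the reverse complements.
Ppfia2: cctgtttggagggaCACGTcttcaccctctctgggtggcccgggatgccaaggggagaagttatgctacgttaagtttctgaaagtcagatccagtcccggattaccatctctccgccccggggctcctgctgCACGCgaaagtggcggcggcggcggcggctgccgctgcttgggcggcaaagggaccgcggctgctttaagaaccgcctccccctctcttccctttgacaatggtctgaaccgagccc
Sv2c: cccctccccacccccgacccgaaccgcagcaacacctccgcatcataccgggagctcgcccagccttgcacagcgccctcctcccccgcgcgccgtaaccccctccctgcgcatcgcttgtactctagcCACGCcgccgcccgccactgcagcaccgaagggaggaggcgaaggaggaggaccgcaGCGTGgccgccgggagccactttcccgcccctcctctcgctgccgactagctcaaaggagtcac
Sncg: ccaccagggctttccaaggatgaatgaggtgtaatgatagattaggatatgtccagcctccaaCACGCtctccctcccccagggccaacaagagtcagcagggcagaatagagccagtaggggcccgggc
Syt1: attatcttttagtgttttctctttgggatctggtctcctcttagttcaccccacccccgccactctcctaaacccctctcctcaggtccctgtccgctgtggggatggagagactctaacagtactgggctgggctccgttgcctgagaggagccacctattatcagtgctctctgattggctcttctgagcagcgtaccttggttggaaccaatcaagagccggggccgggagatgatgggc

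*Ppfia2* and *Sv2c* held 2 matches each and *Sncg* held 1. The core is short and common in promoters. Over windows from 250 bases before to 50 after a RefSeq start, it was in 36 of 51 windows of members (70.6%), in 61.4% of the 13268 windows of genes tested, and in 43.8% of all 32851 windows. Of the 48 members, 39 had a window. *Snap25* and *Rims2*, the members that were higher at an unadjusted p under 0.05 in edgeR, had none and were not searched. The cyclic AMP response element, searched as TGACGTCA, was in 2 member windows (3.92%), those of *Napa* and *Syn1*, and in 3.15% of the windows of genes tested. The site of the neuronal repressor REST, searched on both strands, was in 0 of 51 and in 0.0528% of the windows of genes tested. These matches are letters in a window, with no measurement of binding.

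Levels were compared between genes as reads per kilobase of exon, scaled to 1000000 reads counted. The machinery spanned from *Sncg*, *Syt11*, and *Snap25*, which were among the most abundant transcripts of these neurons, to *Sv2b* and *Cadps2*, which were close to absent. *Sncg* had the highest mean level, 388 ± 149 (SD, n = 2) in the controls and 198 ± 20.6 (SD, n = 3) in *Hif1aCKO* neurons, in the 99.2 percentile of the genes tested. *Syt11* and *Snap25* followed, with means over the 5 libraries of 155 and 152. The order of these last 2 differed between the genotypes. Per length, *Syt11* was above *Snap25* in both controls (165 against 138 and 191 against 90.4) and below it in all 3 *Hif1aCKO* libraries (157 against 176, 118 against 179, and 144 against 174). This comparison within a library does not depend on how libraries were scaled to each other, and it was chosen after the values were seen. It does depend on the lengths used: in control replicate 5, the reads not divided by length were 7897 for *Snap25* and 7219 for *Syt11*. *Cplx1*, *Rab3b*, *Napa*, *Syngr3*, *Rab3a*, *Syt4*, and *Vamp2* followed, with mean levels from 74.0 down to 41.0. Neighbours in this order differed by less than their spread, and every pair of neighbours swapped places in at least 1 library.

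Of the 46 members tested, 28 were above the median level of all genes tested (4.96), and their median percentile was 60.1. *Bsn*, *Dnm1*, *Synpr*, *Vamp1*, *Syt2*, *Syt6*, and *Rims1* were tested with mean levels under 1. *Syt1*, the usual sensor of fast release, had a level of 23.3 ± 10.9 (SD, n = 2) in the controls, well under the 178 ± 18.4 of *Syt11* in the same libraries.

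**Figure D3:**
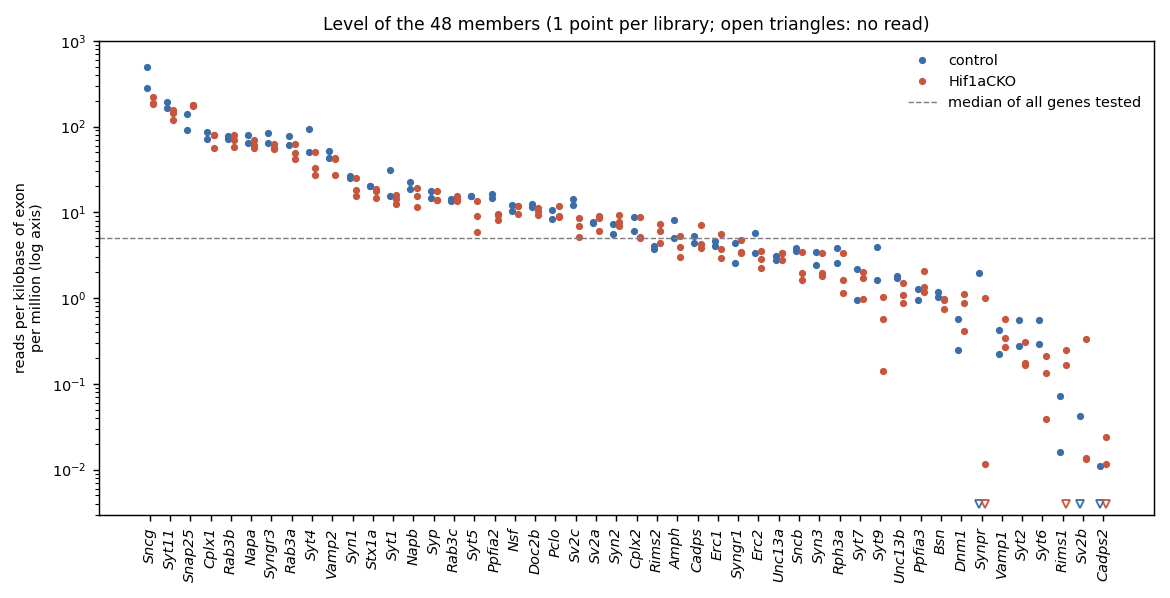
Level of all 48 members in each library, in reads per kilobase of exon, scaled for library size, on a log axis, ordered by mean, with open triangles for libraries with no read and a dashed line at the median of all genes tested, 4.96. *Sncg*, *Syt11*, and *Snap25* lead in both genotypes, and the rarest members, *Rims1*, *Sv2b*, and *Cadps2*, are each without a read in some libraries.

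The make-up of the 15 families with more than 1 member in the list was compared as the share of each paralog in the summed level of the family's listed members. Paralogs outside the list, such as *Rab3d*, were not in these sums, so the shares are not those of whole families. In 5 families the share of the leading paralog did not overlap between genotypes, and in 4 when counts were not divided by length, where *Syt11* overlapped. In the SV2 family, *Sv2c* made up 61.8% and 65.4% of the level in the controls and 51.5%, 49.8%, and 36.2% in *Hif1aCKO* neurons. *Sv2a* took the remainder, at 36.3% ± 2.42 (SD, n = 2) in the controls and 53.3% ± 9.29 (SD, n = 3) in *Hif1aCKO* neurons, so that the leading paralog was not the same in all *Hif1aCKO* libraries. In the liprin family, *Ppfia2* made up 92.8% and 94.0% in the controls and 87.8%, 81.9%, and 87.3% in *Hif1aCKO* neurons. In the Munc13 family, the share of *Unc13a* was 60.3% and 64.7% in the controls and 72.0%, 79.2%, and 69.1% in *Hif1aCKO* neurons.

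The share of *Syt11* in the listed synaptotagmins was 61.3% ± 6.63 (SD, n = 2) in the controls and 69.1% ± 3.99 (SD, n = 3) in *Hif1aCKO* neurons, with a gap under 1 point between the nearest libraries. The exact two-sided permutation test over libraries gave p = 0.1 for these 4 families, which is the smallest value that 2 libraries against 3 allow, and an adjusted p of 0.375 over the 15 families. *Pclo* over *Bsn* was the fifth, at 89.6% against 91.7% (exact permutation p = 0.2). In the complexin family, *Cplx1* held 91.4% ± 1.21 (SD, n = 2) in the controls and 91.5% ± 4.32 (SD, n = 3) in *Hif1aCKO* neurons. Among the synapsins, *Syn1* went from 73.4% to 64.7% with overlap, and among the Rab3 genes *Rab3b* from 47.5% to 51.2% with overlap.

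**Figure D4:**
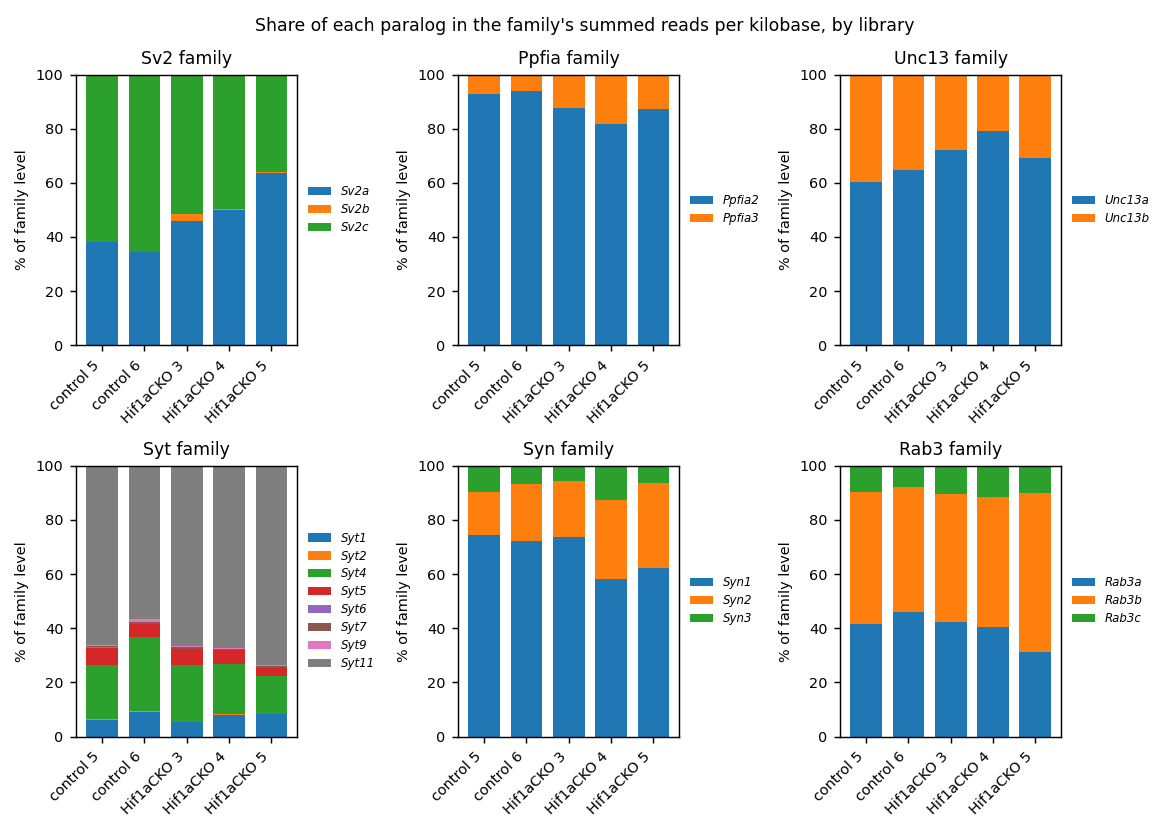
Share of each paralog in the summed reads per kilobase of the listed members of its family, in percent, for 6 of the families and each of the 5 libraries. The green part of the SV2 bars, *Sv2c*, shrinks from 61.8% or more in the controls to 51.5% or less in *Hif1aCKO* neurons, and the blue part of the Munc13 bars, *Unc13a*, grows from 64.7% or less to 69.1% or more.

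Only 4 members, *Ppfia2*, *Sncg*, *Sv2c*, and *Snap25*, kept an unadjusted p under 0.05 in all 5 fits that omitted a library. Their log2 fold change ranged from -0.86 to -0.71 for *Ppfia2*, from -1.16 to -0.79 for *Sv2c*, from -1.32 to -0.52 for *Sncg*, and from 0.34 to 0.96 for *Snap25*. The libraries of each genotype lay close together for *Ppfia2*, and the controls lay far apart for *Sncg* and *Snap25*. With all libraries and with each left out, 26 members stayed below 0 and 7 above it, and 7 of the 8 synaptotagmins were among those below. These fits share most of their libraries, and the shares of all genes that did the same are not given here. The 4 members named above were also those with the smallest p with all libraries. Of the 46 members, 28 were higher in control replicate 6 than in control replicate 5.

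**Figure D5:**
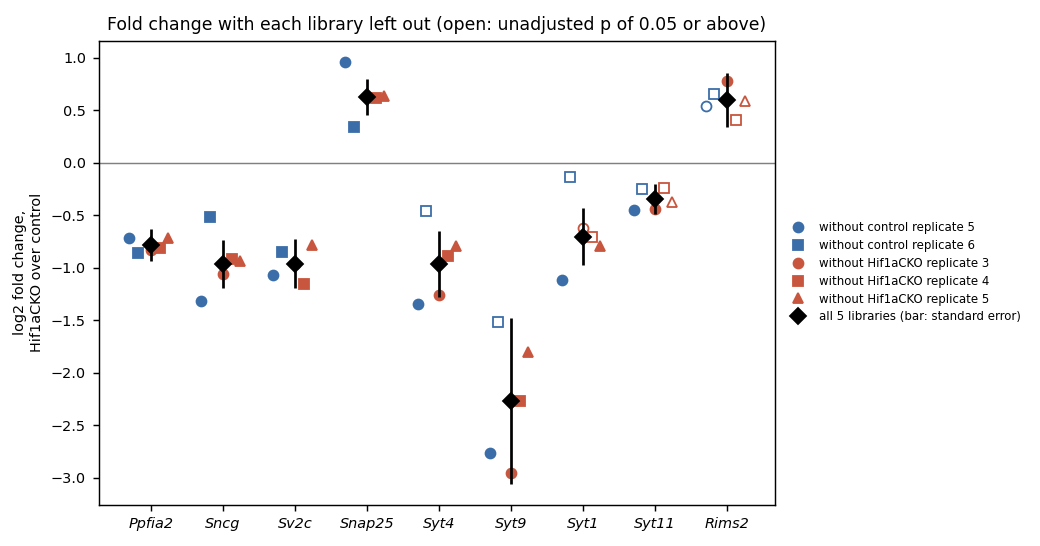
Log2 fold change of the 9 members with an unadjusted p under 0.05 for all 5 libraries (black diamonds, bars of 1 standard error from edgeR) and with each library left out (coloured points, open where p was 0.05 or above). *Ppfia2*, *Sncg*, *Sv2c*, and *Snap25* have filled points throughout, and the open blue squares of *Syt4*, *Syt9*, *Syt1*, and *Syt11* are the fits without control replicate 6.

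The other genes of the pathway, from 5 further lists of 79 genes, were spread evenly around 0. Of these, 75 were in the table and 67 were tested. In *Hif1aCKO* neurons 36 were lower and 31 higher, with a median log2 fold change of -0.05. At an unadjusted p under 0.05 in edgeR, 4 of the 67 were lower and 4 higher, against 3.85% and 3.83% of all genes tested. All *Hif1aCKO* libraries lay below both controls in 10 of the 67 and above both in 11, against 12.9% of all genes tested each way. None was called. Of the vesicle and Rab genes, *Rab3d* gave 379 and 475 normalized counts in the controls and 235, 295, and 307 in *Hif1aCKO* neurons (log2 fold change -0.61, SE 0.24).

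In vesicle endocytosis, the adaptor subunit *Ap2b1* gave 557 and 597 in the controls and 436, 377, and 358 in *Hif1aCKO* neurons (log2 fold change -0.56, SE 0.19), and endophilin A1, *Sh3gl2*, gave 406 and 569 against 345, 189.7, and 304 (log2 fold change -0.80, SE 0.30). The scaffold *Itsn1* was on the other side, at 335 and 259.7 in the controls and 462, 501, and 468 in *Hif1aCKO* neurons (log2 fold change 0.68, SE 0.21). *Stxbp5l*, tomosyn-2, which holds SNAREs back from fusion, gave 21.9 and 63.1 in the controls and 137, 125, and 119 in *Hif1aCKO* neurons (log2 fold change 1.57, SE 0.51). The groups did not overlap in any of these genes. With each library left out, the log2 fold change ranged from -0.77 to -0.45 for *Rab3d*, -0.65 to -0.50 for *Ap2b1*, and -1.03 to -0.54 for *Sh3gl2*. It ranged from 0.50 to 0.87 for *Itsn1* and from 1.01 to 2.52 for *Stxbp5l*. *Syngr4* and *Syt13* were also higher but rare, with at most 3.12 normalized counts in a control and 6.43 to 35.4 in *Hif1aCKO* neurons. The SNARE-binding list had 12 of 18 genes lower with 0 of them at an unadjusted p under 0.05, and the active zone list had 2 of 7 lower.

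Markers of the neurons themselves were measured in the same libraries, and their part in the values of the machinery was not tested. None of the 18 sympathetic neuron markers was called. In *Hif1aCKO* neurons 12 were lower and 6 higher. At an unadjusted p under 0.05 in edgeR, 8 of the 18 were lower and 2 higher, against 3.85% and 3.83% of all genes tested. The most abundant were *Stmn2* and *Tubb3*, both of the neuronal cytoskeleton, and *Isl1* and *Gata3*, transcription factors of sympathetic neurons. *Tubb3* gave 19774 and 21205 normalized counts in the controls and 14996, 15168, and 16899 in *Hif1aCKO* neurons. *Isl1* gave 12577 and 14019 against 8634, 7799.9, and 8722. These groups did not overlap, and *Stmn2* was also separate (log2 fold change -0.30, SE 0.12), whereas *Gata3* overlapped (log2 fold change -0.17, SE 0.11). The genes that follow were chosen after their values were seen. *Th*, the rate-limiting enzyme of noradrenaline synthesis, gave 2998 and 6985 in the controls and 1682, 1515, and 2582 in *Hif1aCKO* neurons. *Slc18a2*, the transporter that loads noradrenaline into the vesicles, gave 5095 and 5742 against 3869.7, 4401, and 2582. Both were below the controls in every *Hif1aCKO* library, while the 2 markers higher at an unadjusted p under 0.05 were the transcription factor *Hand2* (log2 fold change 0.59, SE 0.18) and the receptor *Ret* (1.10, SE 0.46). Of 5 markers listed for cholinergic motor neurons, only *Chat* and *Slc5a7* were measured. These 2 were low and uneven, with a summed count of 74.0 to 105 in the controls and 12.6 to 95.9 in *Hif1aCKO* neurons. The defining sensory neuron gene *Pou4f1* was at 5.21 or less in every library.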

How the data were processed

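RNA-seq libraries of 100 sorted sympathetic neurons were compared by genotype as the labels give it, 2 control against 3 *Hif1aCKO*. The authors trimmed reads (cutadapt 1.18), removed unwanted sequences (Bowtie 1.2.2), mapped to GRCm38 with STAR (2.7.0c), versions from the submitters' processing notes, and deposited raw read counts per gene with no normalization. Per the paper's methods, Rsubread counted with default parameters and left out multi-mapped reads. These defaults ignore strand and leave out reads that overlap exons of different genes. The GENCODE annotation M21 (GRCm38) gave names, exons, and positions for 20195 of 20224 identifiers, while the paper's methods state M8. In M21, 18 members shared exonic bases with another gene. Besides *Ppfia2* and *Syt4*, these include *Syp* (16.8% of its exonic bases), *Syn3* (14.1%), and *Erc1* (11.8%). Lengths are those of all annotated exons of a gene, merged.

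Counts were tested with edgeR (4.0.16, R 4.3.3), with TMM factors (0.974 to 1.03), filterByExpr, the quasi-likelihood test, and Benjamini-Hochberg adjustment over 15032 genes. The biological coefficient of variation was 0.384. Normalized counts are per 8747702 reads, the mean effective library size. Alternatives were DESeq2 (1.42.0), which the study used, edgeR's likelihood ratio test, limma-voom (3.58.1) with and without sample quality weights, RLE and upper-quartile factors, no filter, at least 10 counts in every library, and each library left out. All pairs of libraries differed beyond sampling noise (chi-square over degrees of freedom 14.2 or more). No sequencing batch is given, and no term for sex was fitted. Tables and figures used Python (3.11.15), pandas (2.3.3), numpy (2.4.6), and matplotlib (3.10.9).

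The members and lists were chosen with earlier results of these data known. Members were named with every value where the unadjusted p was under 0.05, or where groups did not overlap at a mean of at least 50 normalized counts, up to 20 by smallest p, together with 14 core release genes. Other pathway genes were named at an unadjusted p under 0.05, at most 8. A gene that met this rule is not reported here. Of the marker lists, the highest genes and those at or near 0 could be named. Endothelium, mesenchyme, erythroid, and macrophage markers summed to at most 112 normalized counts in a library, and sensory neuron markers to at most 199.7. Chromaffin cell markers summed to 14658 to 16572 in the controls and 15177 to 20812 in *Hif1aCKO* neurons, mostly *Cartpt* and *Chgb*, which went opposite ways. *Cartpt* gave 7650 and 6243 in the controls and 13438, 11310, and 17992 in *Hif1aCKO* neurons. *Chgb* gave 5514 and 8695 against 776, 4732, and 1106. Of the 4 chromaffin cell markers tested, 3 were lower and 1 was higher. Markers that are not in the table were not analysed here.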

Additional observations from a re-analysis of the deposited data

How the results depend on the processing

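No paired analysis was possible because no label ties control libraries to *Hif1aCKO* libraries. The groups share only replicate number 5, which is not described as a pairing. The number of genes called, 0 with edgeR's quasi-likelihood test, was 60 with DESeq2 and 40 with the edgeR likelihood ratio test, and members called were 3 in each of these. Members higher at an unadjusted p under 0.05 were 1 with limma-voom, and members lower were 11 with limma-voom and sample quality weights. With each library left out, 0 to 4 genes and 0 to 0 members were called, 3 to 11 members were lower and 1 to 2 higher at an unadjusted p under 0.05, and the median log2 fold change of the members was -0.29 to -0.21. All *Hif1aCKO* libraries then lay below the controls in 20 to 24 members and above them in 4 to 7. The leading share was separate in 6 to 9 families. Fewer libraries then have to lie apart, also over all genes, whose shares in these fits are not given here. *Nsf* changed sign under upper-quartile factors (0.0044). The number of members with all *Hif1aCKO* libraries below both controls, 16, was 11 under upper-quartile factors and 14 under RLE factors. It was 12 of the 42 tested with at least 10 counts in every library, and 15 or 16 under the other settings with all libraries. With libraries left out, log2 fold changes of core release genes crossed 0 for *Cplx1* (-0.26 to 0.013), *Cplx2* (-0.55 to 0.072), *Syp* (-0.23 to 0.057), *Nsf* (-0.15 to 0.090), and *Sv2a* (-0.036 to 0.22), and those of *Vamp1*, *Syt7*, *Cadps*, *Synpr*, *Syngr1*, *Pclo*, and *Erc1* also did. The cause was not tested. For the log2 fold changes of named members under the other settings with all libraries, 206 values kept their direction and side of the threshold. There, 1 changed sign, 5 gained an unadjusted p under 0.05, and 2 lost it. With a library left out, 108 kept both, 8 changed sign, and the rest crossed the threshold. The median of all genes moved by less than 0.1 under every setting. With 2 libraries against 3 the smallest exact p is 0.1. *Dnm1*, *Rims1*, and *Synpr* rest on few reads or on single libraries.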
